A study of Mus musculus with 4 samples.

Results

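Regions of the mouse cortex genome in which SOX2 chromatin immunoprecipitation gave a peak in only 1 of 3 libraries made up 12253 of the 27083 regions of the study, or 45.2%. They were chosen by the peak calls themselves: the peaks of the 3 immunoprecipitated (IP) libraries were pooled, peaks sharing at least 1 base were joined, also in chains, and a joined region was kept when all of its peaks came from a single library. IP library 1 contributed 4351 such regions, IP library 2 contributed 4385 and IP library 3 contributed 3517, each of them exactly 1 peak. A further 5496 regions were found in 2 libraries and 9334 in 3. The chromatin was that of wild-type male C57BL/6 mice aged 2 months, with 0.3 g of cortex crosslinked and the DNA pulled down by a rabbit polyclonal SOX2 antibody. The 3 IP libraries and 1 input library, the unselected DNA used as background, carried no other treatment or genotype. A label that names SOX2 as a transduced factor stands on all 4 samples, the input included, and was not used. Nothing in the labels says that the IP libraries came from separate animals, and their spread may be technical. In bulk tissue fewer bound cells and less binding per cell cannot be told apart.

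SOX2 is a transcription factor of the SOX family, whose members bind DNA through a high mobility group (HMG) domain that inserts into the minor groove at a short core sequence. It keeps neural stem cells in an undifferentiated state and remains present in adult astrocytes. A peak caller reports a region only when its sequenced fragments (tags) pass a threshold in that library, so a region missing from a peak list may hold fewer tags without being empty. The files hold only peaks that passed, so the level of these regions in the other libraries is unknown and cannot be taken as 0.

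Promoter sequences under single-library peaks are shown because the sequence was not used to choose the regions. They are reference sequence and not the sequenced fragments, and each peak covers only part of its window. The windows shown rank 1 and 2 by strength in IP library 2, and 1 and 3 in IP libraries 1 and 3. Each gives the 250 bases before an annotated start of the gene, 5′ to 3′, from RefSeq on the GRCm38.p6 build, whose coordinates are those of mm10. Capitals mark ACAAAG or ATTGTT, 2 forms of the core SOX motif, on either strand.
Esyt2 promoter (chr12:116280972-116281221, plus strand): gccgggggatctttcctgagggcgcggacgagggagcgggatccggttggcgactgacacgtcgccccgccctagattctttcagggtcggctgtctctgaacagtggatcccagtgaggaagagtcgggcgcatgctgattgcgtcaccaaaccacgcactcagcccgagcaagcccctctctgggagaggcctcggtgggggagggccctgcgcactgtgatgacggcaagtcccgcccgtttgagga
Dact3 promoter (chr7:16875067-16875316, plus strand): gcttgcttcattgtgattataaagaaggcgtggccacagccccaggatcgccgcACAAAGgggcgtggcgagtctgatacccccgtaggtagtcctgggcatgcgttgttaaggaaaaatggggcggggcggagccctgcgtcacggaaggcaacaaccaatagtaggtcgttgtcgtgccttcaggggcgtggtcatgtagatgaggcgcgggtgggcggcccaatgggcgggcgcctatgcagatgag
Zfp330 promoter (chr8:82774146-82774395, minus strand): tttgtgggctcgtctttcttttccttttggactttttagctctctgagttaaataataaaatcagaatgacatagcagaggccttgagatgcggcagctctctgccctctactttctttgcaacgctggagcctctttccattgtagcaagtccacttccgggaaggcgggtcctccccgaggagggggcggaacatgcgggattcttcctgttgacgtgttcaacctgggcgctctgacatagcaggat
Ribc2 promoter (chr15:85131848-85132097, plus strand): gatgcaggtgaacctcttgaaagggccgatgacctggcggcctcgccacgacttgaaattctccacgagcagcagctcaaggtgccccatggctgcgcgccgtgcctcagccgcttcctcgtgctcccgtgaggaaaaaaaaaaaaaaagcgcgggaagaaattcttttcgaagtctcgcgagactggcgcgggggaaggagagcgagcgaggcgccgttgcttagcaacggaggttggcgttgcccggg
Zfp36l1 promoter (chr12:80113014-80113263, minus strand): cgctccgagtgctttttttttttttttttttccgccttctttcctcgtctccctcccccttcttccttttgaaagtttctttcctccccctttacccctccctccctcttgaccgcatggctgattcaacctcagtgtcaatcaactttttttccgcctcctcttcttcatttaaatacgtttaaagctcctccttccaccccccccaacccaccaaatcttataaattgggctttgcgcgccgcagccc
Ppip5k2 promoter (chr1:97770093-97770342, minus strand): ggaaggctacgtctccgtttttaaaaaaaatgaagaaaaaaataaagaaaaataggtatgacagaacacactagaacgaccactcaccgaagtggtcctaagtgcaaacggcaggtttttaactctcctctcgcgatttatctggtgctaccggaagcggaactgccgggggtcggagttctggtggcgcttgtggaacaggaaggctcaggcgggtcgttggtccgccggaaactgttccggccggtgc

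Only the Dact3 window among these 6 held either of these 2 forms, 1 ACAAAG. The windows of Trim24, Fbrs and Gtf2i, also among the 3 strongest of a library, are not shown and held neither. Other forms of the core motif were not searched, and core motif below means these 2 forms only. Dact3, which encodes an antagonist of Wnt signalling, had a peak of 9.36 normalized tags in IP library 1, where normalized tags are the authors' tags per peak scaled to a library of 10000000 tags. The Esyt2 peak in the same library held 11.3 normalized tags. It lay inside the gene span, 1.845 kb from the nearest gene end, so its window stands before an internal start. Esyt2 encodes a tether between the endoplasmic reticulum and the plasma membrane. In IP library 2 the peaks held 11.1 at Zfp330, which encodes a zinc finger protein, and 10.5 at Ribc2, a gene of ciliary microtubules whose peak also covered the window of Smc1b. In IP library 3 they held 8.60 at Zfp36l1, which encodes an RNA-binding protein that promotes messenger RNA decay, and 7.40 at Ppip5k2, an inositol pyrophosphate kinase gene whose peak also covered the window of Gin1. The Zfp330 peak lay 391.7 kb from the nearest peak of another library. The Zfp36l1 peak lay 0.065 kb from a region that both other libraries shared.

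Over all promoters, windows under single-library peaks held a core motif less often than windows under peaks found in 3 libraries. Such a motif was present in 14.2% of 695 windows in IP library 1, 15.7% of 677 in IP library 2 and 17.3% of 399 in IP library 3. Under peaks of regions found in 3 libraries the shares were 24%, 23.8% and 23.9%. Every single-library value lay below every value of the 3-library regions, and also below the 21.6% of all 21263 promoter windows that held a motif. The comparison with all windows was not matched for base composition. The means were 15.7 ± 1.53% and 23.9 ± 0.0896% (SD, n = 3 libraries), a difference of -8.19 percentage points. The two-sided exact permutation test gave p = 0.1, the smallest that 3 against 3 values allow, with 0.167 after Benjamini-Hochberg adjustment over 5 sequence measures, and sign flips within a library gave an exact p of 0.25, the smallest for 3 pairs. This design cannot reach 0.05, and the small SD of the 3-library regions comes from counting nearly the same windows in each library.

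The ACAAAG form was found in 12.1%, 10.2% and 11.5% of windows under single-library peaks of IP libraries 1, 2 and 3, against 17.6%, 17.7% and 17.8% under peaks of 3-library regions and 15.0% of all windows. The ATTGTT form was found in 2.59%, 6.06% and 5.76%, against 7.53%, 7.27% and 7.29%, and in 8.22% of all windows. Under peaks of regions found in 2 libraries, ACAAAG was in 14.0%, 13.8% and 15.7% of windows and ATTGTT in 7.99%, 8.79% and 9.28%, so ATTGTT was most frequent there. Either form was in 20.8%, 21.7% and 23.8%, between the single-library and the 3-library values of each library. Base composition did not follow this order. The median number of CpG dinucleotides was 17, 18 and 16 in windows under single-library peaks and 17 under peaks of 3-library regions in each library, against 10.0 over all windows. The median share of G and C was 60.4%, 60.4% and 59.2% against 59.6%, an exact p of 0.4 (two-sided permutation, 0.5 adjusted). Over all windows it was 55.6%, lower than under the peaks, and both motif forms hold mostly A and T. The part of base composition in the lower motif shares than in all windows was not tested. Of the 1727 windows that a single-library peak of any library overlapped, 44 were overlapped in 2 or more libraries by peaks that did not touch each other. A motif in the window is a description of the sequence and not a measured binding site. Windows were at hand for 17492 of 21887 protein-coding genes (79.9%), with none on chromosome 18.

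**Figure D1:**
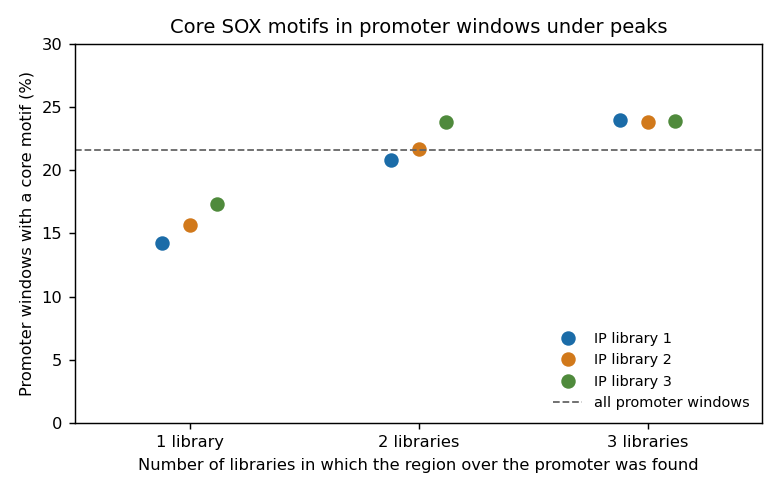
Share of promoter windows (250 bases before a gene start) that hold ACAAAG or ATTGTT on either strand, in percent. Windows lie under peaks found in 1, 2 or 3 libraries. Each point is 1 IP library and the dashed line is the share of all windows. The points for 1 library lie at 14.2% to 17.3%, below the 23.8% to 24% for 3 libraries.

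Single-library regions were weak, by the measures that chose them, and lay close to the detection threshold. The libraries held 36330529, 32492927 and 41875666 tags, and a peak had to reach a score of 14, 13 and 16 tags there. The median single-library region held 4.68, 4.92 and 4.06 normalized tags in IP libraries 1, 2 and 3. These correspond to 17, 16 and 17 tags, and a count of 17 has a 95% exact Poisson interval of 9.90 to 27.2, which covers counting error only. The threshold applies to the score, a separate count, so the interval cannot be set against it directly. In IP library 3, 147 single-library regions had under 15 tags although its threshold score was 16. Regions of 2 libraries had medians of 5.51, 5.23 and 4.54 normalized tags, and those of 3 libraries 8.26, 8.00 and 6.93. In each library the order was therefore the same. At exactly the threshold score stood 26.6%, 31.6% and 27.2% of the single-library regions, against 2.73%, 3.34% and 2.34% of the peaks of 3-library regions. Within 3 tags of the threshold stood 73.4 ± 1.63% of the single-library regions (SD, n = 3).

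Read the other way, the share of a library's peaks that no other library shared fell along the score. It was 61.5 ± 1.53% (SD, n = 3) among peaks at the threshold and 52.3 ± 1.02% among those 1 tag above it. It was 19.9 ± 0.895% at 5 to 7 tags above and 3.39 ± 0.217% at 13 to 20 above. Over 40 tags above the threshold 0.483 ± 0.356% of peaks were found in 1 library only, which were 6, 3 and 1 peaks. The libraries differed most at 2 tags above the threshold, where the shares were 43.4%, 38.4% and 45.6% in IP libraries 1, 2 and 3.

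**Figure D2:**
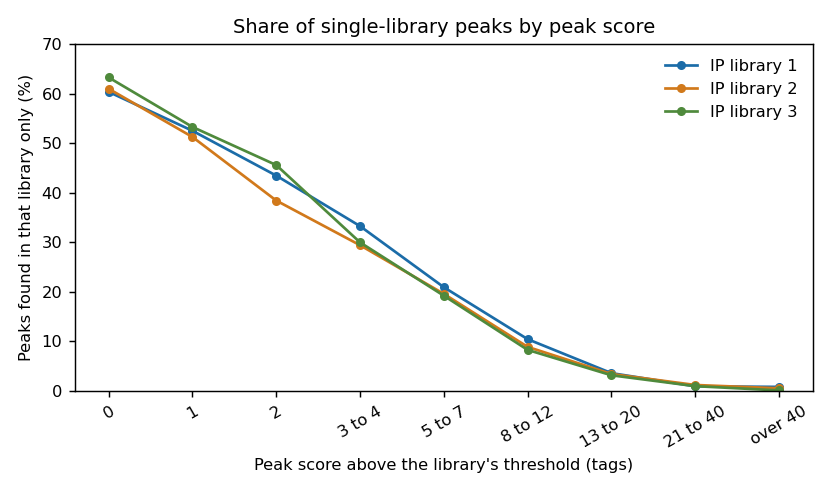
Share of each library's peaks found in that library only, in percent, against the peak score above the library's threshold in tags; each line is 1 IP library. All 3 lines start at 60.3% to 63.3% and end below 1%.

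Of the other peak properties, the fold differed between the classes and the control tags had the same median. The fold divides a peak's tags by those of the input and was a filter of the peak calls. It is therefore not separate from the strength above. The focus ratio describes how tightly the tags of a peak sit around its centre, as a fraction, and it had medians of 0.727, 0.731 and 0.725 in single-library regions and 0.746, 0.744 and 0.738 in those of 3 libraries. The median number of control tags, those of the input under the peak, was 2.0 in every class and library. The input was at the floor of 0.5 tags in 13.4%, 12.1% and 15.0% of single-library regions, close to the 13.7%, 13.7% and 12.8% of 3-library regions. The enrichment over the input, the authors' fold value, had medians of 8.16, 7.60 and 7.47 against 15.4, 15.2 and 12.3. Folds under 5, near the authors' limit of 4, were held by 17.7%, 18.2% and 20.6% of single-library regions and by 3.99%, 3.47% and 7.71% of those of 3 libraries. Enrichment over the surrounding 10 kb was under 5 in 19% and 17.1% of single-library regions of IP libraries 1 and 2 and in 32.0% of those of IP library 3. That library also had 22.8% of its candidate peaks removed by the input filter, against 15.5% and 14.8%, and allowed 2 tags per base where the others allowed 1. The part of these settings in its regions was not tested.

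Strong single-library regions usually stood beside a peak of another library. The distance to the nearest peak of another library had medians of 15.3, 15.6 and 18.3 kb. In all, 769 regions (6.28%) lay within 100 bases of one, 1542 more lay within 1 kb and 9942 (81.1%) had none within 1 kb and are called isolated here. Among regions of under 15 tags, 82 of 2186 (3.75%) lay within 100 bases. Among those of 40 tags and over, 29 of 48 (60.4%) did, and 43 of 48 lay within 1 kb. The share rose at each step of tag number between, from 5.23% at 15 to 19 tags to 19.5% at 30 to 39. Of the 769 regions within 100 bases, 280 stood next to a region that held both other libraries, and 474 stood next to a region of 1 other library. Another 13 stood next to a region of all 3 libraries and 2 next to one of their own and 1 other library. A neighbour of 1 other library is itself a single-library region, so the 474 can count the same pair from both sides.

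**Figure D3:**
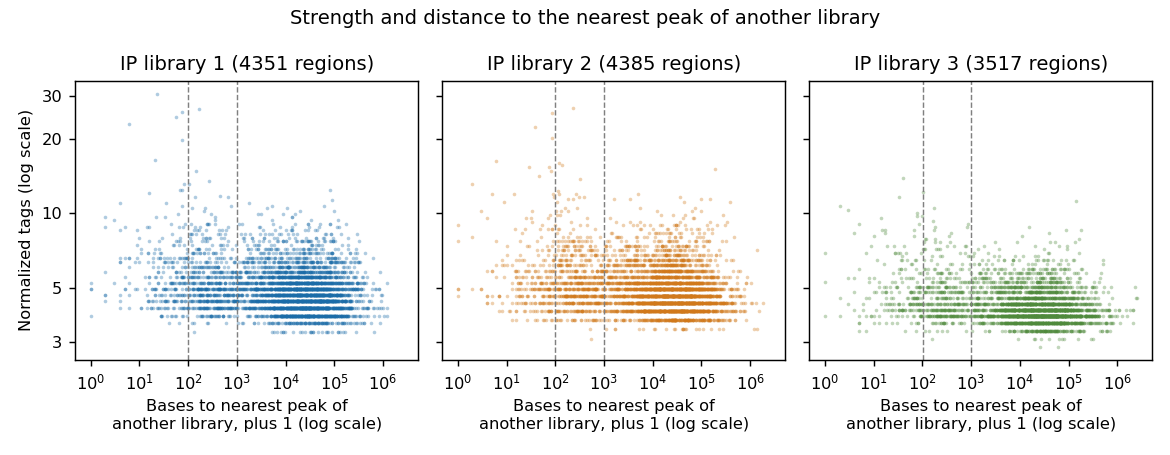
Normalized tags of each single-library region (log scale) against the distance in bases to the nearest peak of another library plus 1 (log scale), 1 panel per IP library, with dashed lines at 100 bases and 1 kb. Every point above 16 normalized tags lies left of the 1 kb line.

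The regions within 100 bases of another library's peak also had a more spread tag placement. Their median focus ratio was 0.664, 0.655 and 0.656 in IP libraries 1, 2 and 3, against 0.738, 0.739 and 0.731 in isolated regions. Regions between 100 bases and 1 kb were intermediate at 0.707, 0.704 and 0.700. At 15 to 19 tags the medians were 0.654 within 100 bases and 0.731 in isolated regions, and at 30 to 39 tags they were 0.657 and 0.778. At 40 tags and over they were 0.640 and 0.760, but 43 of those 48 regions lay within 1 kb. The isolated median there rests on very few regions. The lower focus ratio was thus seen in each of these tag ranges, with little weight in the highest. The median of control tags were 2.0 in all of these classes.

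**Figure D4:**
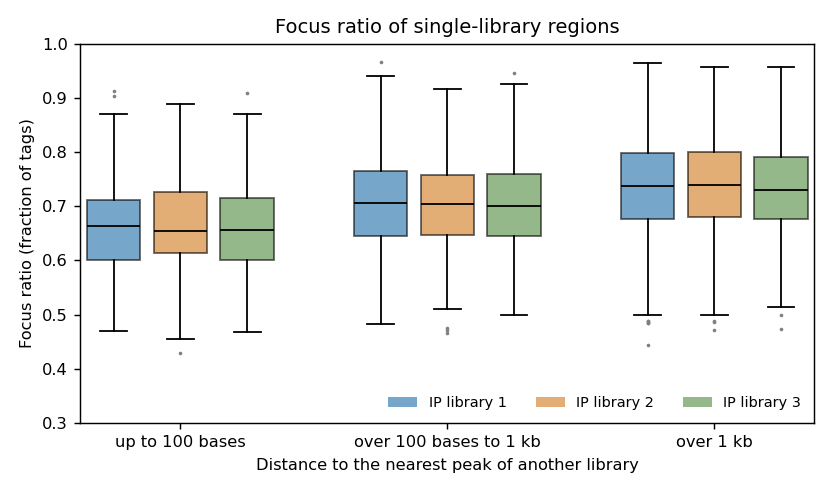
Focus ratio (fraction of tags) of single-library regions by distance to the nearest peak of another library, for each IP library; boxes show the median and quartiles, whiskers reach 1.5 interquartile ranges and dots lie beyond. Medians lie at 0.655 to 0.664 within 100 bases and 0.731 to 0.739 over 1 kb.

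The strongest single-library regions with an assigned gene show this arrangement. Each was assigned to the protein-coding gene nearest to it within 50 kb, with distance 0 inside a gene, which leaves unknown on which gene it acts. In IP library 1 the strongest lay inside Gnao1, which encodes a G protein subunit abundant in neurons, on chromosome 8 from 93918031 to 93918183, with 30.6 normalized tags. A region from 93917856 to 93918008, only 22 bases away, held 37.5 in IP library 2 and 28.2 in IP library 3. All 3 libraries thus had a peak of like height inside Gnao1, and that of IP library 1 shared no base with the others. Whether these peaks mark the same site was not tested. Hopx, which encodes an atypical homeodomain protein of radial glia, had 24.5 at 7.60 kb outside the gene, and 56 bases on IP libraries 2 and 3 held 26.5 and 18.1. Mt3, the brain metallothionein gene, had 16.5 at 0.567 kb outside the gene, 20 bases from 12.3 and 9.55 in IP libraries 2 and 3. The pattern recurred with 26.4 inside Nhsl1 and 23.1 outside Chic2, at 166 and 5 bases from a region of the other 2 libraries. Tcf7l1, which encodes an HMG-box effector of Wnt signalling, had 14.9, and Cadm1, a synaptic adhesion gene, 13.5. Those 2 stood 141 and 264 bases from a region found in all 3 libraries.

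In IP library 2 the strongest was assigned to Thumpd3, at 33.6 kb outside the gene, with 25.5 normalized tags, and 83 bases away IP libraries 1 and 3 held 19.5 and 18.9. Msi2, which encodes an RNA-binding protein of neural stem cells, followed with 22.5 inside the gene, on chromosome 11 from 88583219 to 88583371. The neighbouring region of Msi2 lay 38 bases away and held 27.2 and 20.8 in IP libraries 1 and 3. Ppp2r2b, a regulatory subunit gene of protein phosphatase 2A, had 20.3, and 86 bases from it the other libraries held 16 and 14.3. Hmga2, which encodes a chromatin protein of progenitor cells, had 16.3 at 5 bases from a region with 16 and 11.2. Fgfr3, the fibroblast growth factor receptor gene that marks astrocytes, had 15.4 at 16.5 kb outside the gene, 28 bases from a region with 21.5 and 15.8. Mgat4e (15.4), Tex33 (16) and Rab11fip4 (15.7) had neighbours at 74, 120 and 138 bases, the last 2 of them regions of all 3 libraries. None of these 8 regions of IP library 2 was isolated.

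In IP library 3 the values were lower. Itsn1, an endocytic scaffold gene, had 12.2, and 0.101 kb away IP libraries 1 and 2 held 11.0 and 9.54. Stard13 had 11.7, at 32 bases from a region of IP library 2 alone with 9.23. Klf9, a Krüppel-like factor gene, had 10.7 at chromosome 19 from 23133498 to 23133656, which is 7.65 kb from the gene, and 1 base separated it from a region with 16.5 in IP library 1 and 16.3 in IP library 2. Skor1, which encodes a corepressor of the SKI family, had 10.3 at 2 bases from a region with 8.81 and 7.39. A second Msi2 region, with 9.79, stood 76 bases from 15.1 and 16.3. Psd3 (10.5) lay 173 bases from a region of all 3 libraries and the region assigned to Bod1 (10.0) 78 bases from one of both others. Sfi1 alone among the 8 was isolated, with 11.2 normalized tags on 8.0 control tags, 4.62-fold enrichment, and 142.4 kb to the next peak of another library.

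At the edge of the rule, 12 regions were separated from a peak of another library by 0 bases. Inside Myo1d, IP library 1 had 3.85 normalized tags in a peak that ended at base 80504164 of chromosome 11, and IP library 2 had 4.92 in a peak that began at the next base. Inside Rbm15, IP libraries 2 and 3 had 7.69 and 6.93 in touching peaks. Just outside the rule, peaks that shared 1 base were joined, such as 3.69 in IP library 2 and 4.40 in IP library 1 inside Tbc1d22a, and 4.06 in IP library 3 and 4.95 in IP library 1 inside Zyg11b. In all, 59 regions of 2 peaks were joined by at most 10 shared bases. Regions on both sides of the rule thus had values of the same range.

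Of the 88 regions of at least 10 normalized tags (33, 47 and 8 in IP libraries 1, 2 and 3), 34 lay within 100 bases of another library's peak, 30 more within 1 kb and 24 were isolated (9, 14 and 1). The isolated ones had a median of 6.9 control tags and 4.92-fold enrichment, against 3.0 control tags and 20.7-fold for the 34. At least 5 control tags were present under 19 of the 24 (79.2%), and 13 of the 24 had a fold under 5. Peaks of 3-library regions in the same range of normalized tags, from 10 to 15.1, had a median of 2.0 control tags and 17.7-fold, with at least 5 control tags under 8.83% and a fold under 5 in 0.455%. Strong isolated regions were therefore high in the input as well. Whether the positions were removed from the other libraries by the fold filter was not tested.

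The strongest isolated regions were chosen after their values were seen. In IP library 2, Ccdc150 had 15.1 normalized tags at 0.018 kb from the gene, with 7.9 control tags and 6.21-fold enrichment, 188.3 kb from the next peak of another library. In IP library 1, the strongest held 12.4 on 6.0 control tags and lay 765.2 kb from Slitrk1, a neuronal adhesion gene. The Esyt2 promoter shown above followed with 11.3 on 6.0 control tags, and Map4k4, a kinase gene, with 11.0 on 5.0. In IP library 2, a region inside Paqr8 had 11.4 on 1.0 control tag, 37.5-fold, and lay 1.61 kb from a region with 27.5, 23.1 and 19.8 in IP libraries 1, 2 and 3. In IP library 3, Rfx3, a gene of a ciliary transcription factor, had 8.84 on 6.0 control tags.

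By position, the largest share of single-library regions lay inside genes, as it did for regions of 3 libraries. The centre lay within 1 kb of either end of a protein-coding gene in 21.5%, 21.8% and 17.8% of those in IP libraries 1, 2 and 3. Their mean was 20.4 ± 2.22% (SD, n = 3), against 19.8 ± 0.0258% for peaks of 3-library regions. IP library 3 lay below the 3-library regions and the others above, and the difference of 0.605 percentage points did not pass the two-sided exact permutation test (p = 0.7, 0.7 adjusted over 4 positions). Gene bodies, over 1 kb from either end, held 46.7 ± 1.11% against 44.6 ± 0.0190%, higher in all 3 libraries. Outside genes at up to 50 kb lay 17.8 ± 0.862% against 18.7 ± 0.00684%, and over 50 kb away 15.1 ± 0.600% against 16.9 ± 0.00105%, both lower in all 3 libraries. Each of these 3 differences had an exact permutation p of 0.1, the smallest possible (two-sided, 0.133 adjusted), and of 0.25 within libraries. The shares of the 4 positions add up to the whole, so these differences are not separate results. The 3-library shares count nearly the same regions in each library. Their small SD is therefore not a spread between independent values, and the tests do not compare 3 independent values with 3 others.

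Split by strength, the gene-end share of single-library regions was 19.7 ± 3.27% under 17 tags, 20.9 ± 1.60% at 17 to 24 and 20.7 ± 2.55% at 25 and over (SD, n = 3). Isolated regions lay at gene ends in 20.2%, 20.7% and 16% and those between 100 bases and 1 kb of another library's peak in 28.5%, 27.5% and 30.0%. Those within 100 bases did so in 23.6%, 24.2% and 22.2%, so the share did not rise steadily with closeness. A promoter window was overlapped by 14.3%, 13.8% and 10.4% of single-library peaks, against 14.5% of the peaks of 3-library regions in each library, leaving out chromosome 18. IP library 3 was the lowest for both measures. Chromosome X held 54, 45 and 48 of the single-library regions, or 1.24%, 1.03% and 1.37%, close to the 1.33% of 3-library regions.

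**Figure D5:**
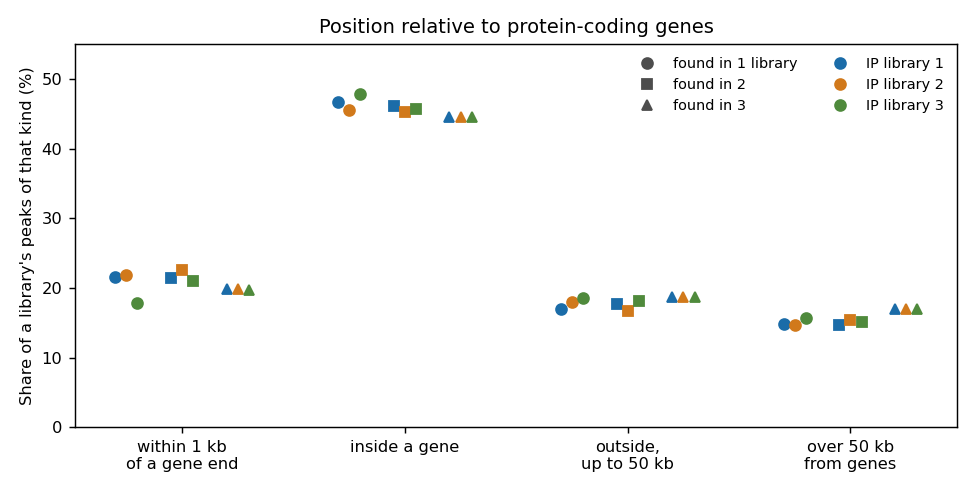
Share of each library's peaks, in percent, by position relative to protein-coding genes, for peaks of regions found in 1, 2 or 3 libraries (circles, squares, triangles); each point is 1 IP library. Within 1 kb of a gene end the single-library shares run from 17.8% to 21.8%, on both sides of the 19.8% of 3-library regions.

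A gene was assigned to 10412 single-library regions (85.0%), and these genes were 6116 of the 21887 that code for proteins. That share, 27.9%, is the background for the lists below. By library the assigned genes were 13.1% of all genes in IP library 1, 13.3% in IP library 2 and 11.1% in IP library 3, and 22.2% had a region of 3 libraries. Just 1 such region was held by 3987 genes, and 276 held 5 or more. Genes with 5 or more had a median span of 312 kb, those with any 39.9 kb, and all protein-coding genes 17.2 kb. A region of 3 libraries was also present at 2460 of the 6116 genes (40.2%). At 2913 genes, 13.3% of all, the single-library regions were the only ones.

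The genes with most single-library regions were long. Lsamp, a neuronal adhesion gene of 2197 kb, held 26, of which 14, 7 and 5 came from IP libraries 1, 2 and 3, beside 10 regions of 3 libraries. Nfia, which encodes a gliogenic transcription factor, held 16 beside 11 regions of 3 libraries, and its strongest single-library values were 8.81, 7.39 and 5.73 normalized tags. Pde4d, a cyclic AMP phosphodiesterase gene, held 15 beside 2, and Frmd4a held 14 beside 8. Arhgap26 held 13, and Arid1b, Auts2 and Msi2 held 12 each. Per 100 kb of span the counts ran from 1.09 at Auts2 to 3.40 at Arid1b. At 34 genes every library had a single-library region and no region was shared. Among them were Thra, the thyroid hormone receptor alpha gene, with best values of 7.16, 6.16 and 5.01 in IP libraries 1, 2 and 3, and Ano1, a chloride channel gene, with 6.61, 5.85 and 5.25. Commd2, a short gene of 7336 bases, had 7.98, 7.39 and 3.82.

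Genes that mark astrocytes held single-library regions in 21 of 29 cases (72.4%, against the background of 27.9%), and in all but 1 of those 21 the gene also had a region of 3 libraries. The counts by library were 15, 11 and 8 genes. Beside Fgfr3, the strongest were at Slc6a11, a GABA transporter gene, with 10.5 normalized tags in IP library 2, 161 bases from a region of 2 libraries, and at Slc1a3, the glutamate transporter GLAST, with 9.08 in IP library 1. Slc1a3, Gli3 and Slc4a4 held 7 single-library regions each. The exception was Clu, which encodes the chaperone clusterin and had 5.85 in IP library 2 inside the gene, with 2 regions of 2 libraries and none of 3. S100b had no region of any kind. Of the same 29 genes 27 had a region of 3 libraries, so single-library regions here mostly adjoined genes that the libraries shared. The lists were set against all genes as counts only, and gene length was not matched.

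Neural stem and progenitor genes held single-library regions in 19 of 30 cases (63.3%), led by Hopx and Msi2 as above and by Cdh2, the N-cadherin gene, with 7.39 in IP library 2. Sall3 and Tnc, which encodes an extracellular matrix protein, were the members without any shared region. Sox2 itself had 1, in IP library 1, on chromosome 3 from 34663326 to 34663478, with 6.06 normalized tags at 10.9 kb outside the gene and 7.63 kb from a region of 3 libraries. Gfap, which encodes the astrocyte intermediate filament, had 1 in IP library 1 with 4.68, at 0.221 kb outside the gene and 0.995 kb from a region with 8.53, 6.77 and 7.88 in IP libraries 1, 2 and 3. Vim, another intermediate filament gene, had 1 in IP library 1 with 4.13 and 1 in IP library 3 with 4.06, which lay on 2 different sides of a region of IP libraries 2 and 3. Nes, the nestin gene, had none, and 1 region of 2 libraries. The SOX family held them in 7 of 19 genes (36.8%), and 21 of its 31 regions lay at Sox5 (9) and Sox6 (12), factors of the SOXD group. The strongest of these held 7.08 at Sox5 and 6.16 at Sox6, both in IP library 2.

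Neuron markers held single-library regions in 19 of 32 cases (59.4%), and 10 of those 19 had no shared region. The strongest were Gria1, an AMPA receptor subunit gene, with 8.31 normalized tags in IP library 2, Npy, the neuropeptide Y gene, with 8.26 in IP library 1, and Snap25, a synaptic fusion protein gene, with 7.43 in IP library 1. Gria1 stood at 4.56-fold and Npy at 5.44-fold over 5.9 and 5.0 control tags. The nearest peak of another library was 136.9 kb from the Npy region and 194.2 kb from that of Snap25. Regions of 3 libraries were held by 8 of the 32 neuron genes. The 10 of 19 are 52.6%, near the 47.6% over all genes with a single-library region, while the count for astrocyte genes was 0 of 21. The difference between the lists was not tested.

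Oligodendrocyte lineage markers held them in 12 of 24 cases (50.0%), led by Sox8 with 6.16, Mbp, the myelin basic protein gene, with 5.51, and Pdgfra, the receptor of oligodendrocyte precursors, with 5.49. Notch pathway genes held them in 14 of 30 (46.7%). Among the receptors, Notch2 had 8.81 in IP library 1 at 13 bases from a region of 2 libraries and Notch4 had 7.39 in IP library 2 at 4.05-fold. Among the ligands, Jag1 had 7.08. Reactive gliosis genes held them in 14 of 38 (36.8%), led by Vcan, which encodes the proteoglycan versican, with 11.6 on 8.0 control tags at 4.76-fold, and Fkbp5, a glucocorticoid-induced chaperone gene, with 10.2 on 6.9 control tags at 4.78-fold. Next was Aspg with 6.16 at 4.05-fold. All 3 of these stood near the fold limit of the peak caller. The next in the list by strength, Osmr and Ggta1, stood at 9.63-fold and 9.07-fold, and Ednrb after them at 4.31-fold.

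The remaining lists lay near or below the background of 27.9%. Microglia markers held single-library regions in 6 of 23 cases (26.1%), led by Sall1 with 8.81 and Ptprc with 6.88, both in IP library 1, and none in IP library 3. Endothelial and mural markers also held them in 6 of 23 (26.1%), led by Pecam1 with 6.77. Cytosolic ribosomal protein genes, which every cell uses, held them in 12 of 38 (31.6%), and in 9 of those 12 no region was shared. Rps15 led with 8.93 in IP library 2 at 0.083 kb from the gene, on 5.9 control tags and at 4.90-fold, followed within the list by Rps24 with 7.39. The list holds only some of these genes: Rps12 with 8.81 and Rpl38 with 7.71, both in IP library 1, are outside it and were chosen after their values were seen. Genes of hepatocytes, a cell type not found in cortex, held them in 3 of 30 (10.0%), at Apoh and Cps1 with 4.92 each and at Fga with 4.40. None of those 3 had a shared region, and 4 other hepatocyte genes had a region of 3 libraries.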

How the data were processed

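SOX2 ChIP-seq was measured in 3 IP libraries of mouse cortex, grouped by sample title, and 1 input, whose tags appear within the IP files. Bowtie 1.0.0, HOMER 4.7 and mm10 are named in the submitters' processing notes. The authors' peaks were called library by library against the input, per the file headers. A peak had to be at least 4-fold over both the input and its surroundings of 10 kb, with a false discovery rate of 0.001 and a Poisson p-value no higher than 0.0001. The p-values were deposited per peak and were used only through that filter.

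The normalized tags are a signal that the authors scaled to 10000000 tags, per the file headers. The focus ratio was deposited as a fraction, the folds as the authors' ratio to input (floor 0.5 tags) or surroundings, and the peak score as the authors' score of tags after a cap per base. IP library 2 has total tags deposited as whole counts, while those of IP libraries 1 and 3 are a signal that was scaled to the input. Tags per peak were computed from normalized tags and the library total, with exact Poisson intervals.

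Peaks were merged at 1 shared base. Genes came from a RefSeq table of GRCm38.p6 without strand or exons, promoter windows from RefSeq. No genome sequence was used, so no motif was searched in the peaks themselves. The members and the 11 gene lists were chosen with earlier results of these data known. Named genes were the 8 strongest assigned regions per library, up to 3 per list and per library's promoters, the regions at the edge of the rule, and Sox2, Gfap, Vim, Nes, Clu and S100b. Not every gene under this rule is reported here. For genes with the most single-library regions, those with regions in every library and none shared, and the strongest isolated regions, the choice followed their values. Merging was checked on 3000 simulated regions of known libraries, and the totals by number of libraries were recovered. These regions were widely spaced with overlapping peaks, so close cases were tried only as single pairs, of peaks sharing 1 base and of touching peaks. For gene assignment, the distance to the nearest gene was recovered at 300 of 300 simulated positions, and the gene's name was not checked. Alternatives covered the overlap rule, peak strength, windows, assignment and each library left out. The software was matplotlib 3.10.9, scipy 1.17.1, pandas 2.3.3, numpy 2.4.6 and Python 3.11.15.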

Additional observations from a re-analysis of the deposited data

How the results depend on the processing

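Of the alternatives tried, most left the values within the spread between libraries or within 1.5 times the count, and the exceptions follow. The 12253 regions became 4754 when peaks under their library's median strength were dropped. The single-library share of a library's peaks, 23.9%, was 29.9% for an overlap of 0.5 of both peaks, 22.4% and 19.3% when gaps of up to 100 bases and 1 kb were bridged, 25.8% with peaks of at least 8-fold, and 33.9% to 36.0% when each library was left out in turn, which leaves 2 libraries to share a region. The median focus ratio was 0.736 with gaps of 1 kb bridged, 0.731 with peaks of at least 8-fold and 0.7235 to 0.7255 with a library left out; median control tags were 1.0 with peaks of at least 8-fold. The share near a gene end was 16.7% for a window of 0.5 kb and 32.1% for 5 kb. Its difference from 3-library regions reversed to -0.272 percentage points at 0.5 kb (exact permutation p = 1.0) and to -1.24 with gaps of 1 kb bridged (exact permutation p = 0.9); the cause was not tested. From 0.605 it rose to 1.61 for the 5 kb window, 2.46 with peaks of at least 8-fold and 4.46 with peaks above the median strength (exact permutation p = 0.1, the smallest possible), and was 0.107 to 1.14 with a library left out, lowest without IP library 1. With regions inside the gene only, list members with a single-library region were 11 stem, 11 neuron, 2 endothelial, 8 gliosis, 4 SOX and 4 ribosomal genes, and with peaks of at least 8-fold 3 endothelial genes. The promoter motif comparison and its alternatives were added after seeing the data: the share under single-library peaks was 17.9% over all 300 bases and 18.1% with peaks of at least 8-fold, and it stayed below that of 3-library regions in each alternative, with differences of -9.69 to -6.51 percentage points. At about 17 tags a region counting error is wide, and the reason for absence from a library was not tested.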
